A study of Homo sapiens with 6 samples.

Results

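The mRNA levels of 10 genes of polyamine metabolism were followed in HCT116, a human colorectal carcinoma cell line with wild-type p53, after exposure to the platinum drug oxaliplatin. The members were picked by gene symbol: the enzymes of synthesis ODC1, AMD1, SRM and SMS, the regulators OAZ1, OAZ2 and AZIN1, and the enzymes of breakdown SAT1, SMOX and PAOX. All 10 were found among the 27942 genes of the count table, and all 10 passed the filter on low counts that left 13727 genes for testing. Untreated cells (NT, 3 libraries) were compared with cells that had received 0.5 µM oxaliplatin for 24 h (OXA, 3 libraries), and both groups were the same unmodified line in the same serum-containing medium. Stranded libraries were made from polyadenylated RNA. The comparison asked which mRNAs differed after a day with the drug. The dose is described as the one that inhibits growth by 50% in this line, measured over a longer exposure than 24 h.

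The polyamines putrescine, spermidine and spermine are small, positively charged molecules that bind nucleic acids and that proliferating cells need. ODC1 (ornithine decarboxylase) makes putrescine from ornithine, AMD1 (S-adenosylmethionine decarboxylase) provides the aminopropyl donor, and the synthases SRM and SMS add aminopropyl groups to give spermidine and spermine. SAT1 acetylates spermidine and spermine for export or for oxidation by PAOX, while SMOX oxidizes spermine directly and releases hydrogen peroxide. Antizymes (OAZ1, OAZ2) bind ODC1 and deliver it to the proteasome, and the antizyme inhibitor AZIN1, an inactive relative of ODC1, binds antizyme in its place. Much of this control acts on translation and protein turnover, which mRNA counts do not measure.

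Antizyme mRNAs are read in full only when the ribosome shifts by +1 base at an in-frame stop codon, a step that polyamines promote. The site is shown for both antizymes because it is the feature of these mRNAs that couples them to the polyamine level. It was read from GRCh38 at chr19:2271416-2271469 (plus strand, coding exon 2 of OAZ1) and chr15:64691489-64691542 (minus strand, coding exon 2 of OAZ2), and the capitals mark the last codon before the stop, followed by the stop codon TGA.
OAZ1: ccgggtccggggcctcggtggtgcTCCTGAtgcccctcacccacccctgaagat
OAZ2: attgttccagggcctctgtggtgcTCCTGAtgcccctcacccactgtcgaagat
Of the 54 bases, 44 were identical between OAZ1 and OAZ2. ODC1 is a textbook target of MYC, a transcription factor that binds the letters CACGTG (an E-box). RefSeq promoter windows (GRCh38.p14, 250 bases before to 50 bases after an annotated start) were held for 7 of the 10 members, and CACGTG, which reads the same on both strands, was found in those of 2 members, ODC1 and SRM. The other enzymes of synthesis, AMD1 and SMS, had windows without it, as did OAZ1, OAZ2 and SAT1, and another ODC1 window held none. The stretches around the matches in ODC1 and SRM are shown because these were the members with a match, and the capitals mark CACGTG. They lie at chr2:10447987-10448056 (minus strand, intron 1 of ODC1, around an alternative annotated start) and chr1:11060197-11060232 (minus strand, before the start of SRM).
ODC1: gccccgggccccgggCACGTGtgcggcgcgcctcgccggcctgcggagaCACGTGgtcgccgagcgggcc
SRM: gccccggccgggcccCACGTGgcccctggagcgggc
Of all genes with a window, 8.77% held CACGTG in at least 1, and of all 35116 windows 7.26% did. These matches describe the sequence and do not show that a factor binds there.

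Library totals lay between 32979521 and 40967880 counts. CDKN1A, the p53 target that encodes p21, served as a check of the treatment labels and had 4143 to 6629 raw counts in NT against 37137 to 40216 in OXA. Of 9 colon epithelial markers, 8 were above 3 counts in every library, the exception being LGALS4 with 0 to 3 counts. Of the fibroblast, leukocyte and endothelial lists (4, 4 and 3 genes), COL1A1, CD68 and VWF were above 3 counts in every library, whereas the defining markers DCN and LUM were at 0 throughout and PTPRC reached at most 2 counts. The summed normalized counts of the epithelial list were 79558 to 114402 in NT and 128357 to 151951 in OXA. KRT8, KRT18 and KRT19 made up most of this sum and were above the NT range in every OXA library, whereas CDH1 had 3747 to 4349 in NT and 3123 to 3879 in OXA, and the part of these shifts in the results below was not tested. For the other lists the sums overlapped between the groups, at 110.4 to 284 and 171 to 278 for fibroblast, 168 to 211 and 198 to 227 for leukocyte, and 21.0 to 27.0 and 17.4 to 28.5 for endothelial genes. In bulk RNA, fewer cells of a type and less RNA per cell cannot be told apart. NT library 1 stood apart: among the genes with a transcript GC content of at least 57.0%, its median deviation from the mean log2 level of its group was −0.50, against 0.32 and 0.19 in NT libraries 2 and 3 and −0.17 to 0.20 in OXA. Values without it are given for SMOX and for other genes whose values it moved. They are not given for ATP13A2, at −1.11 on the log2 scale in this library against the mean of the other NT libraries. The labels call the samples replicates without saying whether they came from separate cultures, so p-values measure the spread between these libraries, which may be technical.

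Normalized counts per kilobase of transcript put the levels of different genes on 1 scale, but keep deviations that differ with GC content. On it the ratio of ODC1 over OAZ1 was 1.79 in NT library 1, against 0.751 and 0.812 in NT libraries 2 and 3. On this scale the members spanned a wide range in untreated cells. SAT1 was the highest at 15207 ± 1642 (SD, n = 3). Its mean over the NT and OXA libraries together was above 98.9% of all tested genes. SAT1 was followed by OAZ1 at 10219 ± 3137 and ODC1 at 10203 ± 1433. The mRNA of the enzyme that acetylates polyamines was thus more abundant in NT than those of ODC1 and its antizyme, whose ranges overlapped. SMS (3942 ± 647) and AZIN1 (3364 ± 340) came next, with overlapping ranges. AMD1 (2273 ± 236), OAZ2 (1925 ± 157) and SRM (1844 ± 500.3) formed a group in which each overlapped with its neighbour. The oxidases were the lowest, SMOX at 309.8 ± 109 and PAOX at 30.3 ± 13.6. Their means over the NT and OXA libraries together were above 62.9% and 15.4% of tested genes. The steps from SAT1 to OAZ1, from ODC1 to SMS, from AZIN1 to AMD1, from SRM to SMOX and from SMOX to PAOX were without overlap in NT. In OXA the step from SAT1 to OAZ1 did overlap, whereas SMS (4469 ± 374) was separated from AZIN1 (2916 ± 305), and SRM (2416 ± 377) lay in every library above the ranges of OAZ2 (1925 ± 111) and AMD1 (1953 ± 136).

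**Figure D1:**
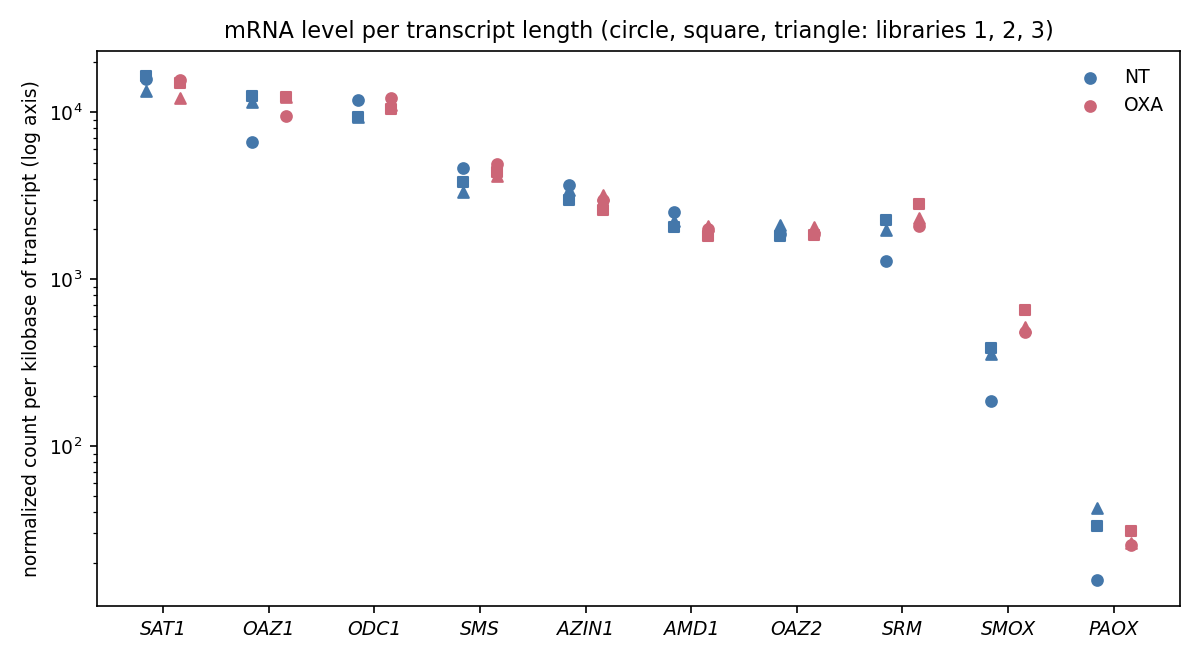
Normalized counts per kilobase of transcript (log axis) for the 10 polyamine genes in each NT and OXA library, ordered by the NT mean; circles, squares and triangles are libraries 1, 2 and 3. SAT1, OAZ1 and ODC1 lie at the top, PAOX with an NT mean of 30.3 at the bottom, and NT library 1 is the lowest NT point for OAZ1, SRM, SMOX and PAOX.

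OXA was compared with NT by the quasi-likelihood test of edgeR, and p-values were adjusted over the 13727 genes by the Benjamini-Hochberg method. Of the 10 members, 0 had an adjusted p-value under 0.05, against 5.07% of all tested genes (381 or 2.78% higher and 315 or 2.29% lower). With library totals in place of TMM, the same split was 350 higher and 511 lower, and with upper quartile factors 348 and 493. At an unadjusted edgeR p-value under 0.05, 1 member was counted, SMOX, where 2980 of the 13727 tested genes were. DESeq2, run on 19353 genes without the filter on low counts, also called this 1 member, among 1187 genes in all. The log2 fold changes of the members lay between −0.22 and 0.83 with a median of 0.068, beside a median of 0.023 over all tested genes. The groups did not overlap for 1 of 10 members, SMOX, against 28.9% of tested genes. In the same-numbered pairs of libraries, 7 of 10 members went the same way in all 3 pairs, against 61.4% of tested genes. NT and OXA libraries with the same number shared deviations from their group means, so a fit that takes this number as a block is given beside each result whose call it changes. With this block edgeR called 3 members, SRM and SMOX as higher and AZIN1 as lower, where 23.0% of all tested genes were called (12.1% higher and 10.9% lower). Of these 3, SMOX alone also exceeded a 1.5-fold difference, where 874 of the 13727 tested genes passed both limits.

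**Figure D2:**
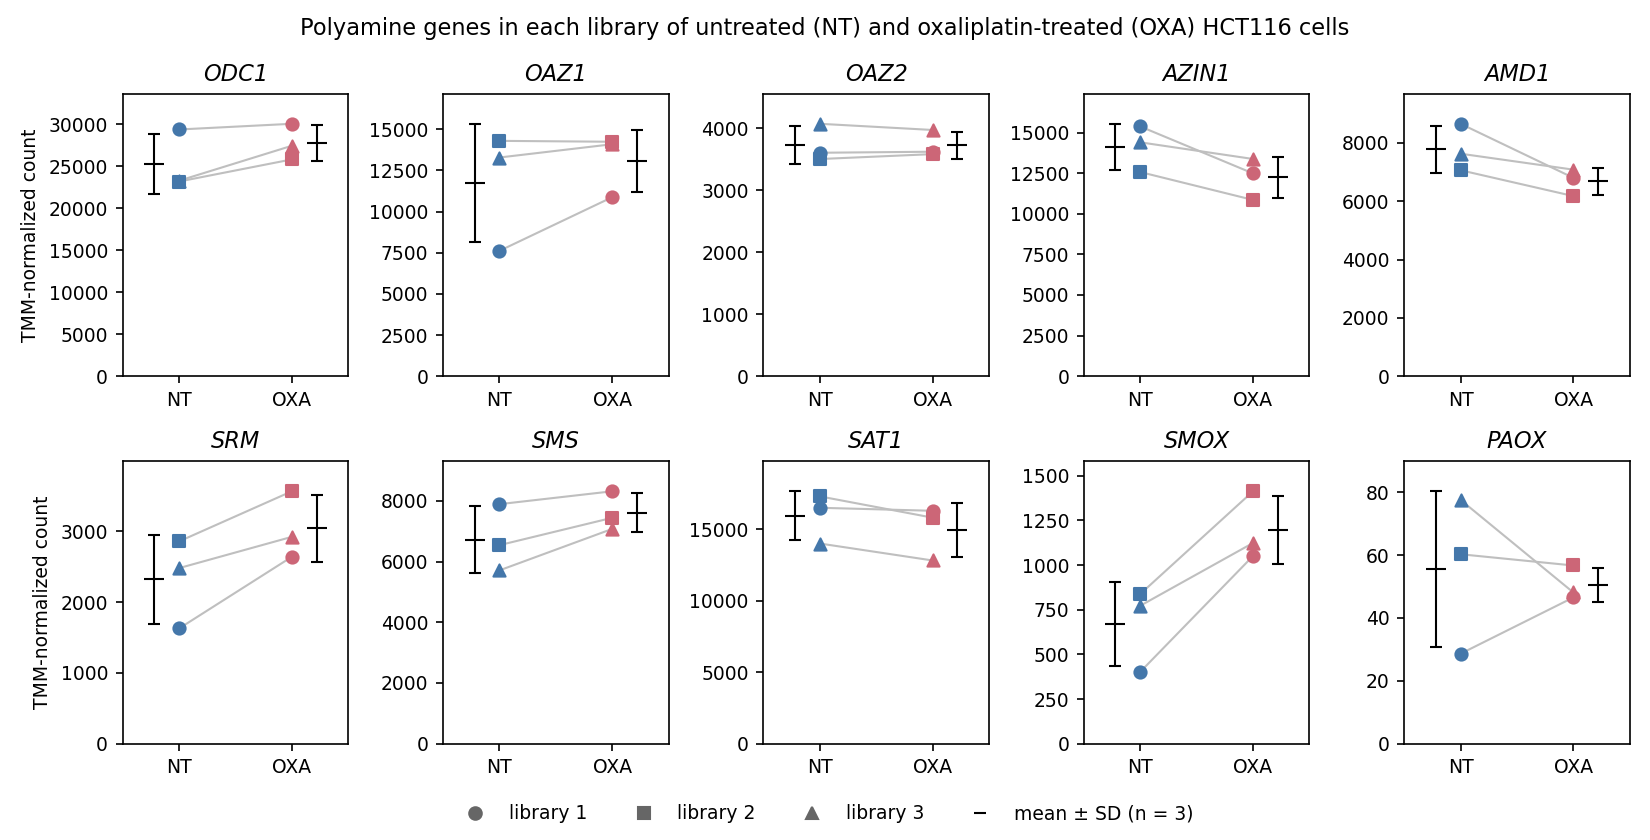
TMM-normalized counts of the 10 members in each library; grey lines join same-numbered NT and OXA libraries, and the black bars beside the points give mean ± SD (n = 3 per group). SMOX is the member whose OXA points (1051 to 1413) all lie above its NT points (402 to 838).

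Among the enzymes of synthesis, ODC1, the entry step, had 29359.9, 23167 and 23262 normalized counts in NT libraries 1 to 3, and 30039.7, 25799 and 27422 in OXA libraries 1 to 3. NT library 1 lay above OXA libraries 2 and 3, so the groups overlapped, although OXA was higher in each pair. The difference did not exceed the spread of the libraries (log2 fold change 0.14, 95% confidence interval −0.14 to 0.41, edgeR adjusted p = 0.57). It kept that size with the block, with an interval of 0.0031 to 0.28 and an edgeR adjusted p of 0.123. Without NT library 1 the log2 fold change of ODC1 was 0.26, and without NT library 2 or 3, or OXA library 1, it was 0.044, 0.046 and 0.075. For AMD1, whose product also limits the synthesis of spermidine and spermine, the normalized counts were 8653, 7061 and 7627 in NT and 6800.2, 6174 and 7081 in OXA. The OXA value was the lower one in each pair, with log2 ratios of −0.35, −0.19 and −0.11, and the groups overlapped by OXA library 3 alone, which was just above NT library 2. AMD1 did not pass (log2 fold change −0.22, interval −0.46 to 0.024, edgeR adjusted p = 0.277), and with the block its edgeR adjusted p was 0.0537. Without NT library 1 the log2 fold change was −0.14 (edgeR adjusted p = 0.416).

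SRM (spermidine synthase) had 1628, 2859 and 2481 normalized counts in NT and 2641, 3568 and 2923 in OXA. OXA was higher in each pair, by 0.70, 0.32 and 0.24 on the log2 scale, but NT library 2 lay above OXA library 1. The log2 fold change was 0.39 with an interval of −0.095 to 0.87 (standard error, SE, 0.21; edgeR adjusted p = 0.333). With the block SRM passed as higher in OXA, at 0.41 (SE 0.096, edgeR adjusted p = 0.0319). Its estimate leaned on NT library 1, and without that library the log2 fold change was 0.19 (edgeR adjusted p = 0.416). SMS (spermine synthase) had 7891, 6539.9 and 5709 normalized counts in NT and 8315, 7441 and 7075 in OXA. Library 1 was the highest of its group in both conditions for SMS, the opposite of its place for SRM, and the groups overlapped. Its log2 fold change was 0.18 (interval −0.13 to 0.49, edgeR adjusted p = 0.485; with the block 0.19 and edgeR adjusted p = 0.0714), and it ranged from 0.043 without NT library 3 (edgeR adjusted p = 0.886) to 0.31 without NT library 1 (edgeR adjusted p = 0.101). Without OXA library 1 it was 0.11.

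Of the regulators, OAZ1, the main antizyme, had 7614, 14296 and 13285 normalized counts in NT and 10874, 14242 and 14091 in OXA. Library 1 was the lowest of both groups, and the other libraries lay within 13285 and 14296 whatever the condition. The log2 fold change of 0.16 (interval −0.38 to 0.69, edgeR adjusted p = 0.75) changed sign to −0.077 without NT library 1. OAZ2, a second antizyme, had 3601, 3500.2 and 4068 normalized counts in NT and 3618, 3579 and 3969 in OXA. It was the member whose groups lay closest together, at 3723 ± 303 in NT and 3722 ± 214 in OXA (SD, n = 3). Its log2 fold change of −0.00047 had an interval of −0.22 to 0.22 (edgeR adjusted p = 0.998), so that changes of up to 1.16-fold remained within the interval. Its sign changed without NT library 3, OXA library 1 or OXA library 2, at 0.037, 0.020 and 0.028.

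AZIN1, which frees ODC1 from antizyme, had 15376, 12569 and 14398 normalized counts in NT and 12485, 10851 and 13372 in OXA. OXA was lower in each pair, with log2 ratios of −0.30, −0.21 and −0.11, while the ranges of the groups overlapped. The log2 fold change was −0.21 (SE 0.115, interval −0.47 to 0.061, edgeR adjusted p = 0.355). With the block AZIN1 passed as lower in OXA, at the same log2 fold change of −0.21 (SE 0.055, interval −0.34 to −0.070, edgeR adjusted p = 0.0467), which amounts to 0.867-fold. With the block and the authors' own gene-specific scaling factors the log2 fold change was −0.22, of about the same size, and did not pass (edgeR adjusted p = 0.0715). Without the block it was −0.14 without NT library 1, −0.13 without OXA library 2 and −0.32 without NT library 2.

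Among the enzymes of breakdown, SMOX (spermine oxidase, chr20:4120980-4187747 on the plus strand of GRCh38) had the largest difference of the 10 members. Its normalized counts were 402, 838 and 772 in NT and 1051, 1413 and 1124 in OXA. Every OXA library was above every NT library, and NT library 1 was the lowest of all, at −1.0 on the log2 scale against the mean of the other NT libraries. The means were 670.5 ± 235 in NT and 1196 ± 192 in OXA (SD, n = 3), a 1.78-fold difference with an interval of 1.16 to 2.73 (log2 fold change 0.83, SE 0.265, edgeR adjusted p = 0.119). DESeq2 called SMOX, with an adjusted p of 0.0121. With the block SMOX passed in edgeR as well, at 1.84-fold (log2 fold change 0.88, interval 0.48 to 1.28, edgeR adjusted p = 0.0173), and the differences in the 3 pairs were 1.39, 0.75 and 0.54 on the log2 scale. Without NT library 1 the log2 fold change was 0.57, below the value with all libraries, and the edgeR adjusted p was 0.0376, whereas leaving out any other library gave an edgeR adjusted p between 0.120 and 0.333.

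SAT1, the acetyltransferase, had 16521, 17319.9 and 14018 normalized counts in NT and 16309.6, 15828 and 12829.5 in OXA. Library 3 was the lowest in both groups, and the groups overlapped, with NT libraries 1 and 2 above every OXA library and OXA library 3 below every NT library. OXA was lower in each pair, with log2 ratios of −0.019, −0.13 and −0.13, and the log2 fold change of −0.090 (interval −0.38 to 0.20, edgeR adjusted p = 0.735) did not pass, with the block included (edgeR adjusted p = 0.222). PAOX, the oxidase that acts on acetylated polyamines, was measured on few counts, with 28.6, 60.3 and 77.6 normalized counts in NT and 46.5, 56.7 and 48.1 in OXA. The NT libraries spread more widely than the OXA libraries and enclosed them. The log2 fold change was −0.14 with an interval of −0.96 to 0.68 (edgeR adjusted p = 0.86), so neither a fall to 0.513-fold nor a rise to 1.60-fold was outside the interval at this depth. Without NT library 3 the sign changed, to 0.15, and without NT library 1 the log2 fold change was −0.45.

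**Figure D3:**
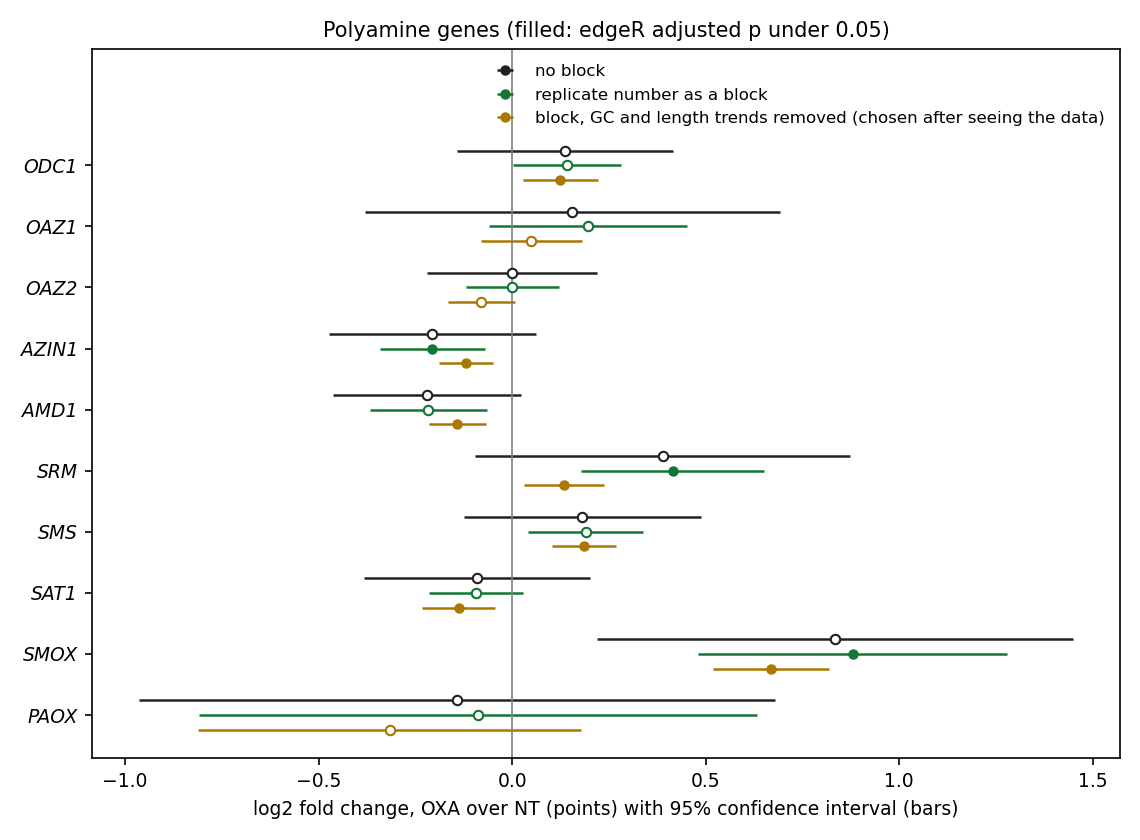
Log2 fold change of OXA over NT with 95% confidence interval for each member in the edgeR fit without a block (black), with the block on replicate number (green), and with the block after removal of GC and length trends (ochre); filled points have an adjusted p under 0.05. No member is filled in black, AZIN1, SRM and SMOX are filled in green, and 7 members are filled in ochre.

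The place of NT library 1 among the NT libraries differed between members of high and of low GC content. The 4 members with a transcript GC content of 54.0% or more were low in NT library 1 against the mean of NT libraries 2 and 3, with log2 differences of −1.24 for PAOX (GC 63.0%), −1.0 for SMOX (60.7%), −0.86 for OAZ1 (54.0%) and −0.71 for SRM (63.7%). OAZ2 (52.8%) was close to level at −0.067. The 5 members below 50% were higher in that library, between 0.084 for SAT1 (43.9%) and 0.37 for SMS (44.2%), with ODC1, AMD1 and AZIN1 in between. OXA library 1 had the same signs against OXA libraries 2 and 3, between −0.38 for OAZ1 and 0.20 for SMS. The part of GC content in the differences between OXA and NT was not tested separately. A fit with the block after removal of each library's trends with GC and length, chosen after seeing the data, called 45.2% of all tested genes and 7 of the 10 members (22.5% of genes as lower). ODC1, SRM, SMS and SMOX were higher and AZIN1, AMD1 and SAT1 lower in OXA, and the median over the members was −0.015 beside −0.0022 over all genes. The log2 fold change of SMOX was then 0.67 (edgeR adjusted p = 8.26e-05) and that of SRM 0.13 (edgeR adjusted p = 0.0381). The remaining called members had log2 fold changes of 0.12 for ODC1, 0.19 for SMS, −0.12 for AZIN1 and −0.14 for AMD1 and SAT1, with edgeR adjusted p-values between 0.00342 for SMS and 0.0417 for ODC1.

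**Figure D4:**
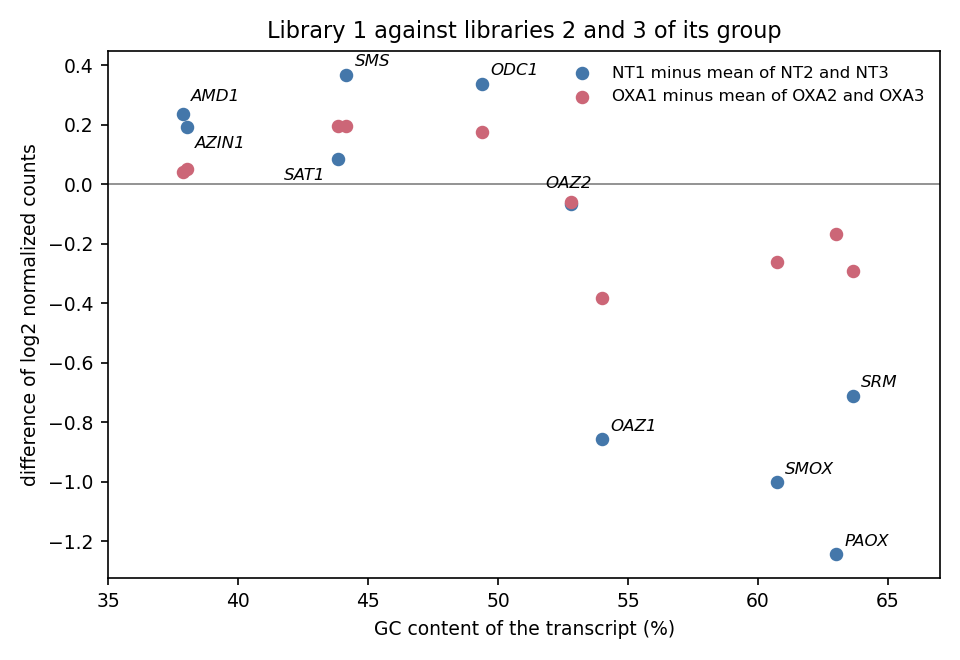
Difference of log2 normalized counts between library 1 and the mean of libraries 2 and 3 of the same group, for NT (blue) and OXA (red), against the GC content of each member's transcript in percent. PAOX, SMOX, OAZ1 and SRM lie below 0, with NT values of −1.24 to −0.71, and the 5 members under 50% GC lie above 0.

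Ratios between members within a library do not depend on the scaling of that library. They do keep deviations that differ between genes, as those of NT library 1 did with GC content. Of 5 ratios compared on levels per kilobase by an exact two-sided permutation test, in which 3 against 3 libraries cannot give a p below 0.1, that of SAT1 over SMOX was the only one whose groups did not overlap. It was 84.8, 42.7 and 37.5 in NT and 32.0, 23.1 and 23.6 in OXA. SAT1 mRNA thus exceeded SMOX mRNA in every library, and by less in OXA. The difference was −0.99 on the log2 scale (exact permutation p = 0.1, 0.5 after Benjamini-Hochberg adjustment over the 5 ratios), lower in 3 of 3 pairs, or −0.62 without NT library 1. It largely repeats the difference of SMOX, as the log2 fold changes were 0.83 for SMOX and −0.090 for SAT1. The summed level of the enzymes of breakdown over that of the enzymes of synthesis was 0.785, 0.966 and 0.812 in NT and 0.761, 0.812 and 0.651 in OXA. It was lower in OXA in 3 of 3 pairs, with overlapping groups and a mean difference of −0.20 (exact permutation p = 0.2, 0.5 after adjustment), which was −0.11 without NT library 2 or without OXA library 3. SAT1 made up nearly all of the upper sum. The antizymes over their targets ODC1 and AZIN1 differed by 0.098, ODC1 over OAZ1 by −0.056 and SMS over SRM by −0.23 on the log2 scale (exact permutation p = 0.9, 1.0 and 0.7, each 1.0 after adjustment). Each of these 3 ratios changed sign without NT library 1, to −0.24, 0.34 and 0.13. Antizymes over targets also did so without OXA library 2 (−0.014), and ODC1 over OAZ1 without OXA library 2 (0.063) or 3 (0.011).

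The genes around the pathway were taken from 4 lists of 29 genes in all, of which 23 passed the filter. ARG1, AGMAT, SATL1 and ATP13A4 were among those with too few counts to be tested. Of the 23, edgeR called 0 as higher and 1 as lower in OXA, or 4.35% against 5.07% of all genes, and their median was 0.036 on the log2 scale. With the block it called 3 as higher and 2 as lower, or 21.7% against 23.0% (12.1% higher and 10.9% lower over all genes). The groups did not overlap for 4 of the 23, against 28.9% of all tested genes. The gene that passed without the block was SLC7A1, the cationic amino acid transporter that brings in arginine, from which ornithine is made. Its normalized counts were 5512, 6687 and 5949 in NT and 4314, 4451 and 4489 in OXA. All OXA libraries were below all NT libraries, and the OXA libraries lay within a narrow range. On the log2 scale the difference was −0.45 (SE 0.095, edgeR adjusted p = 0.0395, and 0.00825 with the block). The call was lost in a test against a 1.5-fold change. It was also lost with the authors' factors without the block, and held with the block and those factors. Leaving out 1 library ended the call in 5 of 6 cases, where the edgeR adjusted p reached 0.178 while the log2 fold change stayed between −0.41 and −0.52 over the 6 cases, and the call held without NT library 1 (edgeR adjusted p = 0.0102).

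In the supply of ornithine and among relatives of the members (9 genes, 6 tested), 0 passed without the block. With the block, where 23.0% of all tested genes were called, 1 passed. This was SAT2, a relative of SAT1, at 645, 752 and 780.3 normalized counts in NT and 886, 903 and 942 in OXA. The groups did not overlap, and OXA over NT was 0.33 on the log2 scale (edgeR adjusted p = 0.143, and 0.0334 with the block). For the mitochondrial arginase ARG2 the log2 fold change was −0.073 (edgeR adjusted p = 0.825), and for AZIN2, a second antizyme inhibitor, it was 0.15 (edgeR adjusted p = 0.735). In the supply of S-adenosylmethionine and the methionine salvage pathway (8 of 8 tested), 0 passed without the block. MTAP passed as lower with it, where 10.9% of all tested genes did. MTAP recovers methionine and adenine from methylthioadenosine, the by-product of SRM and SMS, and had 16209, 13738 and 13293 normalized counts in NT and 11878, 10738 and 10794 in OXA. Its groups did not overlap either (log2 fold change −0.37, edgeR adjusted p = 0.0858, and 0.00838 with the block). For MAT2A, which makes S-adenosylmethionine, the difference was 0.19 on the log2 scale (edgeR adjusted p = 0.333, and 0.0532 with the block).

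Hypusination, the attachment of a spermidine-derived side chain to the translation factor EIF5A, is a use of spermidine that is restricted to EIF5A and its relative EIF5A2. Of its 4 genes, 0 passed without the block and EIF5A and DOHH passed as higher with it, where 12.1% of all tested genes did. EIF5A had 28289, 34502 and 35829 normalized counts in NT and 35175, 38612 and 39278 in OXA, and per kilobase its NT mean of 26007 exceeded that of every polyamine member. NT library 3 lay above OXA library 1, and the log2 fold change was 0.20 (edgeR adjusted p = 0.364, and 0.0486 with the block). The call of EIF5A was lost with the block and the authors' factors, at 0.12 (edgeR adjusted p = 0.171), and with the block and trends removed, at 0.017 (edgeR adjusted p = 0.735). Without NT library 1 the log2 fold change was 0.10. DOHH, which completes hypusine, had 52.1, 154 and 155 normalized counts in NT and 144, 268 and 207 in OXA. NT library 1 was far below the others, the transcript has a GC content of 68.5%, and the log2 fold change was 0.77 (edgeR adjusted p = 0.33, and 0.0388 with the block). Without NT library 1 it was 0.42 (edgeR adjusted p = 0.335). DHPS, which carries out the step before DOHH, had a log2 fold change of 0.22 without overlap of the groups (edgeR adjusted p = 0.35, and 0.11 with the block), 0.11 without NT library 1 and 0.035 with the block and trends removed. Of the 8 transport genes, 5 were tested, and among them the log2 fold change was 0.052 for the polyamine transporter ATP13A3 (edgeR adjusted p = 0.834) and 0.15 for the amino acid transporter subunit SLC3A2 (edgeR adjusted p = 0.611). The fit with the block and trends removed called 45.2% of all tested genes and 30.4% of the 23 around the pathway. In it ATP13A3 passed as higher at 0.15 (edgeR adjusted p = 0.00546). ATP13A2, a lysosomal polyamine exporter named after its values were seen, passed as lower at −0.15 (edgeR adjusted p = 0.0184). ATP13A2 had 878, 2069 and 1728 normalized counts in NT and 1280, 1893 and 1478 in OXA. Its pairs differed in sign, with log2 ratios of 0.54, −0.13 and −0.23.

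**Figure D5:**
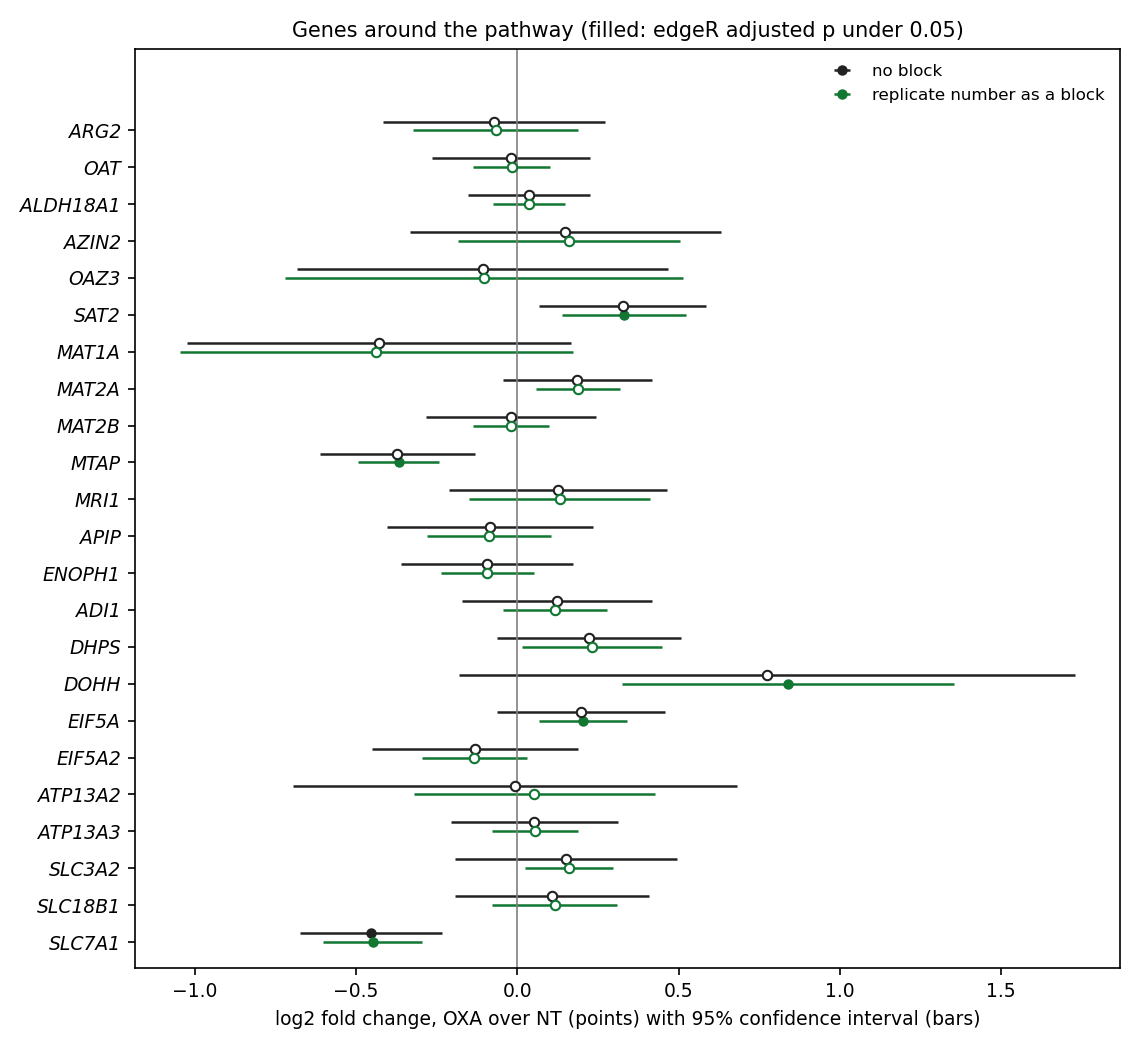
Log2 fold change of OXA over NT with 95% confidence interval for the 23 tested genes around the pathway, without the block (black) and with the block on replicate number (green); filled points have an edgeR adjusted p under 0.05. SLC7A1 is filled in both fits at −0.45, and SAT2, MTAP, DOHH and EIF5A are filled with the block alone.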

How the data were processed

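RNA-seq libraries of 3 NT and 3 OXA samples were grouped by their labels. Per the submitters' processing notes and the study's methods, reads were trimmed (Trimmomatic 0.32), mapped to GRCh38 (STAR 2.7.5b) and processed with RSEM 1.3.3 and DESeq2 2.13. The role of RSEM, the strand setting of the counting and the treatment of reads shared with copies are not given in the sources used here, and processed copies of AMD1, SRM, SMS and OAZ1 are annotated, so those values are uncertain to that extent. The authors deposited raw counts, whole numbers per gene and library, which were used as deposited and may be rounded estimates. The authors also deposited a normalized signal, in which the count is multiplied by a factor that differs between genes, and it entered 1 alternative only, without and with the block.

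The filter on low counts was filterByExpr of edgeR 4.0.16 with a minimum of 10 and a minimum total of 15. TMM normalization and the functions glmQLFit and glmQLFTest followed (R 4.3.3), with DESeq2 1.42.0 and limma 3.58.1 for alternatives. Normalized counts are counts scaled by TMM to the mean library size. Standard errors are the log2 fold change over the square root of F, and intervals cover 95%. Transcript lengths and GC content are from GENCODE 44, MANE Select or else the Ensembl canonical transcript, for 99.6% of tested genes. PCR duplicates could not be told apart from other reads, so the error of counting alone is too small.

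The replicate numbers in the labels paired the libraries: the correlation of deviations from the group means was 0.48, 0.47 and 0.26 for same-numbered libraries and −0.41 to 0.078 for others. What a number stands for is not given in the sources used here. All 10 members were named, and of the genes around the pathway those passing in either fit and 10 set by symbol. Members and lists were chosen with earlier results of these data known. The edgeR fits without a block, with the block, and with the block and trends removed were run on simulated data, with outcomes not given here. The ratios and the order of levels were not simulated. Alternatives were other scalings, filters and tests, the block, the authors' factors, other lengths and each library left out. The removal of GC and length trends and the use of canonical transcripts for OAZ1 and OAZ2 were chosen after seeing the data.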

Additional observations from a re-analysis of the deposited data

How the results depend on the processing

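The count of members called was 0 in the comparison as reported, 1 with DESeq2, 3 with the replicate block, 2 with the block and the authors' factors, 7 with the block and trends removed, and 0 to 1 with 1 library left out. Of the genes around the pathway, 1 was called as reported, 0 against a 1.5-fold change or with the authors' factors, 5 with the block, 4 with the block and the authors' factors, 7 with the block and trends removed, and 0 to 1 with 1 library left out. Over all genes the corresponding counts were 696 as reported, 1187 with DESeq2, 50 against a 1.5-fold change, 441 with the authors' factors, 3157 with the block, 2486 with the block and the authors' factors, 6208 with the block and trends removed, and 85 to 1194 with 1 library left out, the highest being without NT library 1 and the lowest without OXA library 1. Among the members and the named genes around the pathway, log2 fold changes that changed sign were that of OAZ2, to 0.0011 with limma-voom, 0.00088 with the block and 0.047 with the authors' factors, with or without the block, and that of AZIN2, to −0.044 with the authors' factors and −0.014 with the block as well. SLC3A2 went to −0.016 with the block and trends removed. With 1 library left out, the values ranged from −0.080 to 0.037 for OAZ2, −0.077 to 0.30 for OAZ1, −0.45 to 0.15 for PAOX, −0.21 to −0.021 for SAT1, 0.015 to 0.28 for SLC3A2, 0.11 to 0.27 for MAT2A, −0.19 to 0.028 for ARG2 and −0.0092 to 0.27 for AZIN2 (both changed sign without NT library 1) and −0.055 to 0.14 for ATP13A3 (below 0 without NT library 2 or OXA library 3). ATP13A2, at −0.0079 without the block, went to 0.060 with limma-voom and 0.053 with the block. The log2 differences of the ratios ranged from −0.24 to 0.30 for antizymes over targets, −0.27 to −0.11 for breakdown over synthesis, −0.28 to 0.34 for ODC1 over OAZ1 and −0.41 to 0.13 for SMS over SRM. The causes were not tested. With other scaling factors, other filters on low counts and limma-voom, the counts of calls stayed within 1.5 times the reported ones. The standard errors of PAOX and DOHH, 0.354 and 0.411, were above those of the other members and named genes.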
